A study of Gallus gallus with 10 samples.

Results

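The smooth muscle contractile genes examined here are ACTA2, ACTG2, MYH11, CNN1, DES, MYLK, TAGLN and LMOD1. They were chosen by symbol, each symbol matched 1 row, and they make up 8 of the 17617 rows of the expression table. The table describes the white isthmus of 10 dwarf white hens (Gallus gallus, labelled WT), of which 5 laid translucent eggs and 5 laid opaque eggs, with 1 library per hen and no treatment in either group. All were late in lay, their eggs had been graded repeatedly for translucency, and the tissue was taken a few hours after laying with the next egg in the white isthmus. The exact age on the day of sampling is not given in the sources used here. The 10 hens were picked from larger groups by the position of the egg and by membrane thickness, so they are not a random draw. According to the paper, opaque hens were picked for normal membranes and translucent hens for thinner ones. This choice cannot be told apart from the group.

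In the isthmus, a segment of the hen's oviduct, fibers are spun around the egg to form the eggshell membranes. Its secretory mucosa is wrapped in smooth muscle that moves the egg along. In smooth muscle, a rise in calcium activates a kinase that phosphorylates the light chain of myosin, and the myosin then pulls on filaments of smooth muscle actin that are anchored to dense bodies and to intermediate filaments. Genes of this apparatus are widely used as markers of smooth muscle, so their summed level describes how much smooth muscle RNA a bulk sample of the oviduct holds. Fewer muscle cells and less muscle RNA per cell cannot be told apart in such samples.

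Between 15245165 and 19014779 reads were counted per hen in the translucent group and between 11601225 and 17309287 in the opaque group. Counts were scaled to CPM (counts relative to library size) by the TMM method of edgeR, which corrects for differences in RNA composition, and 12858 genes passed its low-count filter, all 8 muscle genes among them. A principal component analysis of log2 CPM put Translucent-1 at -54.7 and Opaque-5 at -78.3 on the first component, which held 39.8% of the variance, while the other 8 hens lay between -11.9 and 36.4. Many results that rest on Translucent-1 and Opaque-5 are therefore also given without them. The member counts lay between 37 and 4952 reads per hen, and 0 of the 80 were fractional, so reads shared with near-identical genes were not divided among them as far as the table shows. ACTA2 and ACTG2 nevertheless code for nearly identical proteins, and how reads in such stretches were assigned was not tested.

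The muscle genes took a small share of the library in every hen. Together they received 0.0960%, 0.0582%, 0.0361%, 0.0665% and 0.0427% of the counted reads in Translucent-1 to Translucent-5, against 0.0813%, 0.0619%, 0.0748%, 0.0576% and 0.0433% in Opaque-1 to Opaque-5. The 95% Wilson interval was 0.0946% to 0.0974% for Translucent-1 and 0.0352% to 0.0371% for Translucent-3, so counting error was far smaller than the difference between these hens. The SD of the share was 0.0235 percentage points among translucent and 0.0149 among opaque hens (n = 5 each), and among translucent hens other than Translucent-1 it was 0.0139. The Wilson intervals cover counting error only. Summed over the 8 genes, TMM-scaled levels were 1122, 573, 355, 639 and 399 CPM in Translucent-1 to Translucent-5, against 749, 604, 704, 585 and 498 CPM in Opaque-1 to Opaque-5. The translucent hens thus held both the highest sum and the lowest, and the opaque hens lay between them. The group means were close, at 618 ± 306 CPM in translucent hens and 628 ± 99.6 CPM in opaque hens (SD, n = 5 each), a log2 ratio of -0.02. Without Translucent-1 the translucent mean was 491 ± 136 CPM (SD, n = 4) and the log2 ratio was -0.35, so this single library sets how the group means compare.

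**Figure D1:**
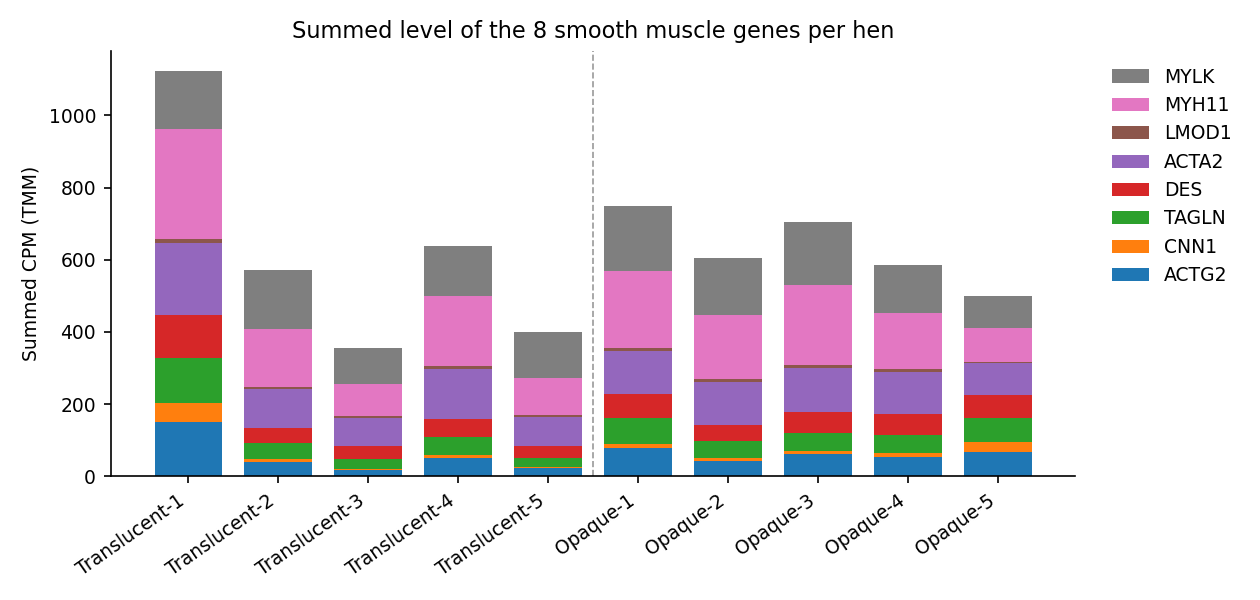
Summed CPM (TMM-scaled) of the 8 smooth muscle genes in each of the 10 hens, translucent hens on the left and opaque hens on the right of the dashed line, with 1 color per gene. Translucent-1 reached 1122 CPM and Translucent-3 only 355 CPM, while the opaque hens stayed between 498 and 749 CPM.

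The actin filament is built here from ACTA2, the smooth muscle alpha actin prominent in blood vessels, and ACTG2, the gamma actin typical of visceral muscle. ACTA2 (ENSGALG00000006343) had 199.8, 108.4, 79.6, 140.7 and 79.8 CPM in Translucent-1 to Translucent-5, against 120.9, 120.2, 123.5, 116.8 and 89.9 CPM in Opaque-1 to Opaque-5. Of the opaque hens, 4 were nearly equal and Opaque-5 was low, whereas 2 translucent hens lay above and 2 below the whole opaque range. The log2 fold change of translucent over opaque was 0.09 (standard error 0.24). For this gene and each of the other 7, the p-value of the edgeR quasi-likelihood fit was 0.9999 once adjusted over all tested genes.
ACTG2 (ENSGALG00000041634) had 152.1, 41.1, 17.7, 51.4 and 22.5 CPM in Translucent-1 to Translucent-5, against 77.9, 41.7, 61.3, 52.9 and 67.1 CPM in Opaque-1 to Opaque-5. Its range was 8.57-fold within the translucent group and 1.87-fold within the opaque group, and 3 translucent hens lay below every opaque hen. The log2 fold change was -0.08 (standard error 0.50), while the difference of mean log2 CPM, in which 1 high hen weighs less, was -0.49 (exact two-sided permutation p = 0.40, n = 5 per group).
The FPKM ratio of ACTG2 to ACTA2, a comparison per length, was 1.40 in Translucent-1 and 1.46 in Opaque-5. It lay between 0.391 and 0.635 in the other translucent hens and between 0.590 and 1.10 in the other opaque hens.

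MYH11 codes for the smooth muscle myosin heavy chain, the motor of the contractile apparatus and the most specific marker of the smooth muscle lineage among these genes. MYH11 (ENSGALG00000006520) had 304.6, 161.9, 88.8, 194.9 and 104.5 CPM in Translucent-1 to Translucent-5, against 213.3, 178.3, 220.8, 155.9 and 92.2 CPM in Opaque-1 to Opaque-5. Both groups spanned a wide range, 3.43-fold in translucent and 2.40-fold in opaque hens, and 3 translucent hens lay within the opaque range. The log2 fold change was -0.01 (standard error 0.33).
MYLK codes for myosin light chain kinase, which starts contraction, and its gene also gives rise to a nonmuscle form. MYLK (ENSGALG00000011708) had 160.2, 163.7, 99.3, 138.2 and 125.3 CPM in Translucent-1 to Translucent-5, against 181.4, 157.3, 174.0, 133.0 and 87.9 CPM in Opaque-1 to Opaque-5. It was the most even of the 8 genes, with a 2.06-fold range over all hens, and all 5 translucent hens lay within the opaque range. The log2 fold change was -0.10 (standard error 0.20).

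CNN1 (calponin), TAGLN (transgelin) and LMOD1 (leiomodin) bind actin. Calponin restrains the actin-activated ATPase of myosin, transgelin cross-links actin, and leiomodin starts new actin filaments. CNN1 (ENSGALG00000041266) varied more than any other of the 8 genes, with 50.6, 7.58, 4.0, 8.91 and 3.42 CPM in Translucent-1 to Translucent-5, against 12.4, 10.1, 9.62, 11.6 and 28.7 CPM in Opaque-1 to Opaque-5. All translucent hens except Translucent-1 lay below every opaque hen, and Translucent-1 lay above them all. The fold between the highest and the lowest hen was 14.8, and the fitted log2 fold change was 0.04 (standard error 0.69). DESeq2 returned no p-value for CNN1. The difference of mean log2 CPM was -0.60 (exact two-sided permutation p = 0.48, n = 5 per group), opposite in sign to the fitted value.
TAGLN (ENSGALG00000011902) had 125.9, 43.0, 26.3, 49.6 and 26.4 CPM in Translucent-1 to Translucent-5, against 72.0, 47.4, 50.4, 51.5 and 65.7 CPM in Opaque-1 to Opaque-5. Again Translucent-1 was far above and 3 translucent hens were below all opaque hens, and the log2 fold change came to -0.08 (standard error 0.39).
LMOD1 (ENSGALG00000028721) was the scarcest, with 10.2, 5.01, 4.26, 6.75 and 4.90 CPM in Translucent-1 to Translucent-5, against 6.39, 5.90, 7.77, 7.26 and 3.66 CPM in Opaque-1 to Opaque-5. Translucent-1 exceeded the opaque hens, Opaque-5 was the lowest of all, and the log2 fold change was 0.0045 (standard error 0.29).

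DES codes for desmin, the muscle intermediate filament that links dense bodies to the cell periphery. DES (ENSGALG00000011306) had 119.0, 42.2, 35.2, 48.1 and 31.8 CPM in Translucent-1 to Translucent-5, against 65.2, 43.4, 56.4, 56.1 and 63.2 CPM in Opaque-1 to Opaque-5. Apart from Translucent-1, 3 translucent hens lay below every opaque hen and the remaining one lay within their range. The log2 fold change was -0.04 (standard error 0.33).

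**Figure D2:**
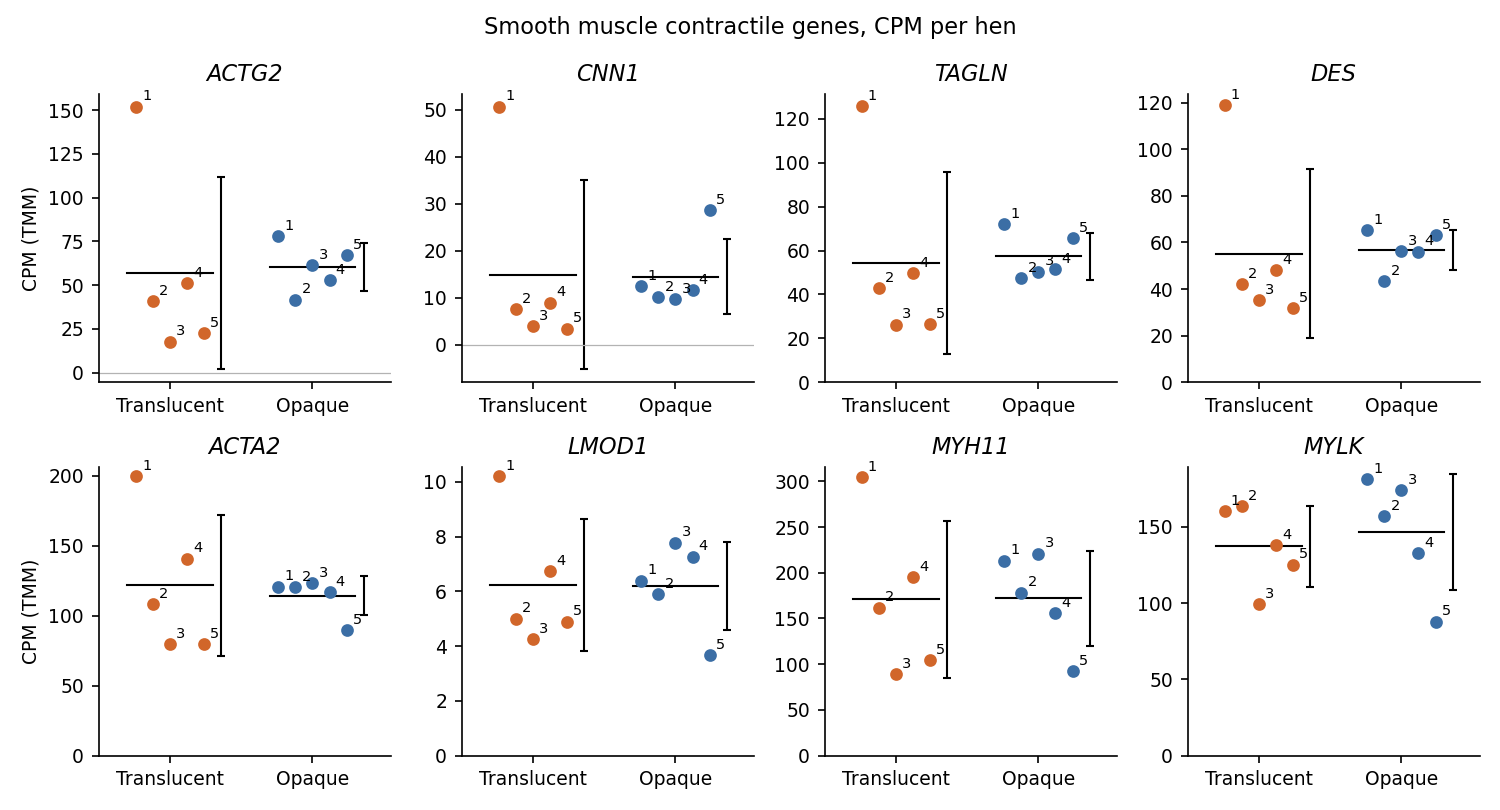
CPM (TMM-scaled) of each smooth muscle gene in 5 translucent hens (orange) and 5 opaque hens (blue), with the hen's number beside its point, the group mean as a line and the SD as a bar beside the points. Translucent-1 was the highest of the 10 hens in 7 of the 8 genes, and Opaque-5 was the lowest opaque hen in ACTA2, LMOD1, MYH11 and MYLK but not in ACTG2, CNN1, TAGLN and DES.

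None of the 8 genes passed a test between the groups. A gene was called where its log2 fold change exceeded 1 in either direction and its adjusted p-value was below 0.05. By edgeR, 0 of the 8 were called, against 0.0% of all tested genes, and the smallest adjusted p-value of any gene was 0.655. DESeq2 called 0 of the 7 for which it gave an adjusted p-value, against 0.0246% of its genes. At an unadjusted p-value under 0.05, edgeR placed 0 of the 8, against 2.19% of all tested genes in either direction and 1.12% lower in translucent hens. The groups overlapped in all 8 genes, and 0.443% of all tested genes showed no overlap. The fitted log2 fold changes of the 8 genes lay between -0.10 and 0.09 with a median of -0.03, against a median of -0.0057 over all tested genes, and 5 of the 8 were below 0, against 51.4% of all tested genes. The exact permutation p-values of the 8 genes lay between 0.40 and 0.98, where 5 hens against 5 can reach 0.0079 at the lowest. With standard errors between 0.20 and 0.69 on the log2 scale, differences of the size of a standard error could not have been detected, so the lack of a call does not show that the groups are equal.

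Leaving out Translucent-1 changed the picture of the actin-binding and filament genes. Without it, all 8 genes had log2 fold changes below 0, against 52.4% of tested genes, and 4 of the 8 had an unadjusted p-value under 0.05 in edgeR, against 2.9% of tested genes. The 4 genes were CNN1 at -1.27 (standard error 0.41), ACTG2 at -0.86 (standard error 0.31), TAGLN at -0.66 (standard error 0.23) and DES at -0.53 (standard error 0.17). None passed the adjustment over all genes, where each had an adjusted p-value of 0.990 from edgeR. Translucent-1 was the highest hen in 7 of the 8 genes, so leaving it out lowers the translucent values by construction. The 4 genes also rose and fell together over the 10 hens (r between 0.92 and 0.98), so they are not separate observations. Without both Translucent-1 and Opaque-5, the same 4 genes were at -0.86 for CNN1, -0.81 for ACTG2, -0.60 for TAGLN and -0.48 for DES, and 4 of the 8 again had an unadjusted p-value under 0.05, against 3.98% of tested genes. ACTA2, MYH11, MYLK and LMOD1 lay between -0.47 and -0.23 in that comparison, so that all 8 were below 0, against 49.5% of tested genes. The hens still overlapped in most genes. Translucent-4 lay above every opaque hen in ACTA2 and within the opaque range in ACTG2, TAGLN and DES.

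The spread itself differed between the genes and the rest of the table. The SD of log2 CPM was more than 2 times as large in translucent as in opaque hens for 5 of the 8 genes, against 5.37% of all tested genes, with ratios of 3.53 for ACTG2, 3.51 for TAGLN, 3.28 for DES, 2.98 for ACTA2 and 2.39 for CNN1. MYH11 had a ratio of 1.40, LMOD1 of 1.18 and MYLK of 0.695. The median ratio was 2.69 over the 8 genes and 0.858 over all tested genes. No test was made of these ratios. They rest largely on Translucent-1, since without that hen 2 of the 8 genes, against 4.0% of all tested genes, exceeded 2 and the median ratio was 1.10 against 0.643 over all tested genes.

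Most of the genes were high and low in the same hens, although Opaque-5 ranked between 2 in CNN1 and 10 in MYLK and LMOD1. Translucent-1 ranked first of 10 in every gene except MYLK, in which Opaque-1 was the highest. Translucent-3 ranked between 9 and 10 of 10 in all 8 genes, and Translucent-5 ranked between 8 and 10 in all of them. Across the 10 hens, Pearson's r of log2 CPM was positive for all 28 pairs, between 0.09 and 0.98 with a median of 0.73, and Spearman's rho lay between 0.20 and 0.99 with a median of 0.65. By a two-sided permutation test with 100000 resamples and Benjamini-Hochberg adjustment over the 28 pairs, 18 pairs passed 0.05 by r and 10 by rho. The share of passing pairs among other tested genes was not computed, so these counts do not show a trait particular to the muscle genes. ACTG2 and TAGLN were the closest pair with r = 0.98 and rho = 0.99 (permutation p = 1e-05 for each, the smallest these resamples can give, adjusted 9.33e-05 and 0.00014, n = 10). CNN1 and MYLK were the least alike with r = 0.09 and rho = 0.20 (permutation p = 0.80 and 0.58, unchanged by adjustment, n = 10). Without the 2 hens farthest from the median of the first gene of each pair, the median r was 0.70, and with the group means subtracted it was 0.74.

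**Figure D3:**
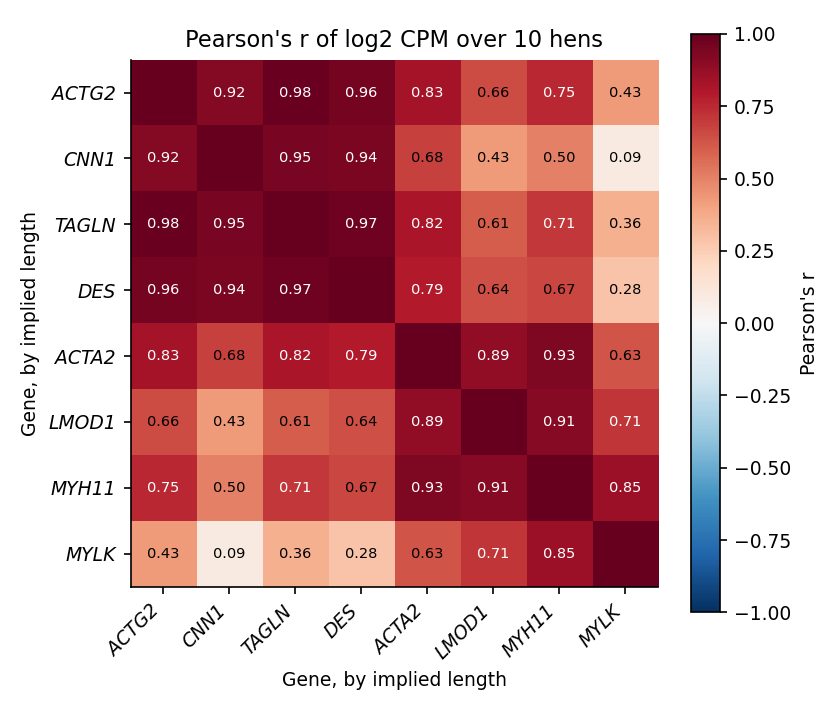
Pearson's r of log2 CPM over the 10 hens for each pair of the 8 smooth muscle genes, ordered from the shortest to the longest implied transcript. The 6 pairs among ACTG2, CNN1, TAGLN and DES had r between 0.92 and 0.98, and the lowest value, 0.09, belonged to CNN1 and MYLK.

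Within this common pattern, the genes fell into sets of 4, the shorter and the longer transcripts, that were noticed only after their values were seen. Among ACTG2, CNN1, TAGLN and DES, r lay between 0.92 and 0.98. Among ACTA2, LMOD1, MYH11 and MYLK it lay between 0.63 and 0.93, and across the sets between 0.09 and 0.83 with a median of 0.65. This division was not seen without Translucent-1 and Opaque-5, where the pairs across the sets had a median r of 0.84, against 0.94 and 0.82 within the sets. Opaque-5 shows the division most plainly. Relative to the mean log2 CPM of the other opaque hens, it stood at 1.39 for CNN1, 0.27 for TAGLN, 0.23 for ACTG2 and 0.21 for DES, and at -0.42 for ACTA2, -0.87 for LMOD1, -0.87 for MYLK and -1.04 for MYH11. The FPKM ratio of CNN1 to MYH11 was accordingly 1.17 in Opaque-5, against 0.166 to 0.290 in the other opaque hens, and it was 0.635 in Translucent-1, against 0.122 to 0.190 in the other translucent hens.

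The sets hold the shorter and the longer of the 8 genes. Transcript length is thus part of the division and not a further result about it. The length implied by the deposited counts and FPKM values was 1309 bases for ACTG2, 1549 for CNN1, 1619 for TAGLN, 2102 for DES, 2234 for ACTA2, 3119 for LMOD1, 5937 for MYH11 and 7833 for MYLK. The cut falls between DES and ACTA2, which are close in length. The genes of the set that was high in Opaque-5 are the shortest of the 8. The same direction was found over the whole table in both hens that lay apart. In Translucent-1, the median difference in log2 CPM from the mean of the other translucent hens was 0.28 for the 3050 tested genes under 1500 bases and -0.38 for the 808 genes over 5000 bases. In Opaque-5, the medians against the other opaque hens were 0.36 and -0.47. Several muscle genes moved further than the median of their length class in Opaque-5, such as MYH11 at -1.04, MYLK at -0.87 and CNN1 at 1.39. The class of CNN1 (1500 to 3000 bases) had a median of 0.03 there. ACTG2, at 0.23, stood below the 0.36 of its class, so not every shorter gene was high for its length. In Translucent-1 all 8 lay above the median of their length class, at 3.17 for CNN1, 2.32 for ACTG2, 1.85 for TAGLN, 1.61 for DES, 1.22 for MYH11, 1.01 for ACTA2, 0.97 for LMOD1 and 0.31 for MYLK. In 6 of the 8 genes Translucent-1 stood more than 1 log2 unit above the mean of the other translucent hens, against 4.13% of all tested genes. The part of length and of RNA quality in these values was not tested.

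**Figure D4:**
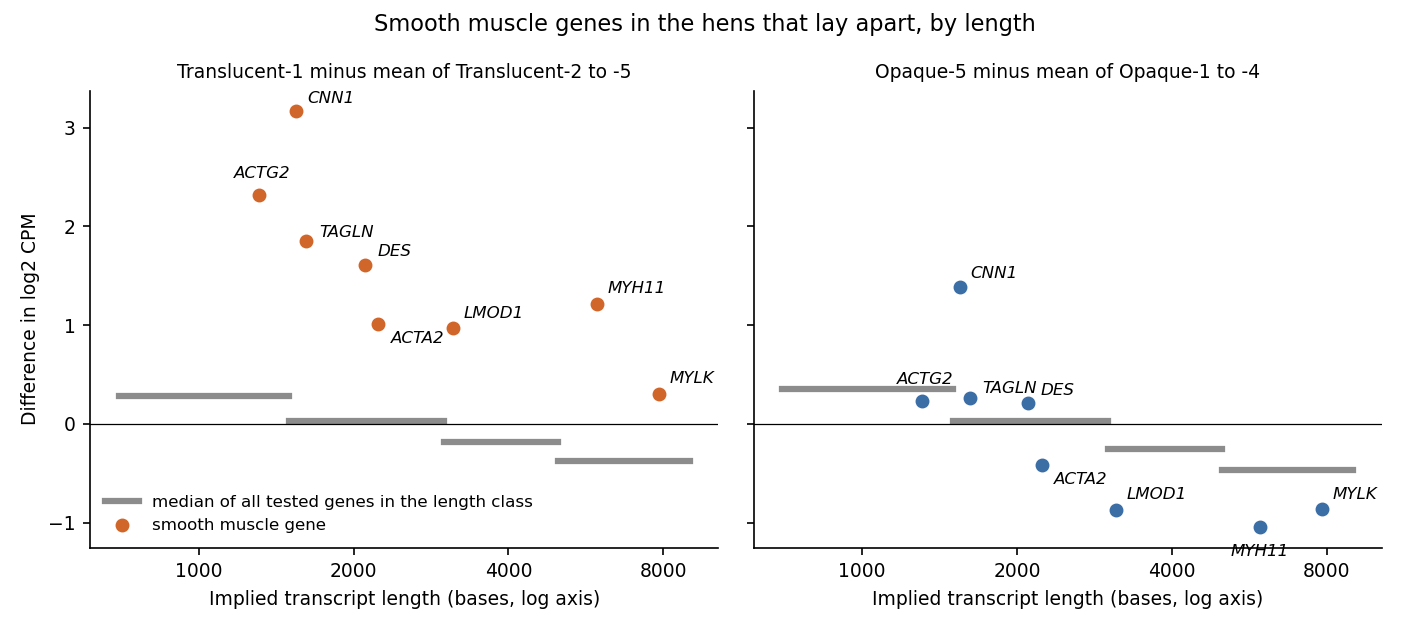
Difference in log2 CPM of each smooth muscle gene between Translucent-1 and the mean of the other translucent hens (left) and between Opaque-5 and the mean of the other opaque hens (right), against implied transcript length on a log axis, with gray bars for the median of all tested genes in 4 length classes. The muscle genes lay above the gray medians in Translucent-1, with CNN1 highest at 3.17. In Opaque-5, ACTG2, CNN1, TAGLN and DES lay above 0 and the 4 longer genes below it.

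Levels of different genes were compared by mean FPKM over the 10 hens, which corrects for length. ACTA2 had 52.4 ± 15.6 FPKM in translucent and 50.9 ± 12.0 FPKM in opaque hens (SD, n = 5 each), followed by ACTG2 with 40.8 ± 34.4 and 46.2 ± 12.0 FPKM in the same order of groups. TAGLN had 31.9 ± 20.4 FPKM in translucent and 35.6 ± 7.32 FPKM in opaque hens, and MYH11 had 27.96 ± 11.6 FPKM in translucent and 29.7 ± 10.7 FPKM in opaque hens. DES, MYLK and CNN1 averaged 26.1, 18.3 and 8.99 FPKM over all hens, and LMOD1 averaged 1.99 FPKM. ACTA2 ranked 1517 among the 12858 tested genes by this measure and LMOD1 ranked 10593. From ACTA2 down to MYLK, neighbors in this order differed by less than the larger of their SDs over the 10 hens. MYLK exceeded CNN1 by 9.28 FPKM on average, against SDs of 4.68 and 7.61 FPKM. In translucent hens alone that gap was 8.54 FPKM, within the SD of CNN1 (10.8 FPKM). The order was reversed in Translucent-1, with 27.9 FPKM for CNN1 and 17.5 for MYLK, and in Opaque-5, with 15.7 and 9.66 FPKM. In opaque hens alone, DES exceeded MYLK by more than their SDs of 4.51 and 6.19 FPKM. LMOD1 lay below every other gene in every hen. For scale, the epithelial adhesion gene EPCAM had 908.7 ± 188.6 FPKM in translucent and 976.2 ± 239.0 FPKM in opaque hens, well above any of the 8 in every hen.

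Other genes of contraction followed the 8 to very different degrees. The genes whose log2 CPM was most like the mean of the 8 over the 10 hens were led by SMTN, which codes for the smooth muscle protein smoothelin, with r = 0.98. Among the 10 most like were also PDLIM3, an adapter of actin anchoring sites, with r = 0.94, and TPM2, the beta tropomyosin that lies along the actin filament, with r = 0.90. SMTN had between 7.36 and 23.6 CPM with a median of 10.7 in translucent hens, against 12.0 to 15.4 CPM with a median of 13.0 in opaque hens. The others were HSDL2 (0.95), DHTKD1 (0.94), IFT74 (0.92), RASD2 (0.90) and 3 genes without a symbol in the table. Only 8 of the 12850 tested genes outside the 8, or 0.0623%, had r above 0.9, and the median over all of them was 0.0092. These correlations share their hens, depth and scaling, and they are given as a description.

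Of the listed muscle genes outside the 8, 63 of 78 in the table passed the low-count filter, and edgeR placed 0 of the 63 at an unadjusted p-value under 0.05 in either direction, against 2.19% of all tested genes. In the thin filament list, 10 of 13 genes were tested, with a median log2 fold change of 0.05 and a median r of 0.44 with the mean of the 8. Of its most abundant genes, TPM3 and CNN3, which many nonmuscle cells make, had r = 0.42 and 0.33, and TPM1 had r = 0.74. The row with the symbol TAGLN2 carries the description of another gene, and without it the medians over the other 9 tested genes were 0.08 for the log2 fold change and 0.42 for r. Of the myosin list, 6 of 7 genes were tested, with a median log2 fold change of -0.02. MYL9, the smooth muscle regulatory light chain, named after its values were seen, followed the 8 with r = 0.88, whereas MYL6, MYL12B, MYH9 and MYL12A, which nonmuscle cells also use, had r = 0.67, 0.37, -0.25 and 0.46. Among 16 tested genes of dense bodies, filaments and anchorage, the median r was 0.29 and the median log2 fold change -0.04. ACTN1, SGCB, ACTN4 and VIM were the most abundant of them, with r between -0.18 and 0.59. Without Translucent-1 and Opaque-5, the median r was 0.29 for the thin filament list and 0.30 for dense bodies, filaments and anchorage. For the myosin list it was 0.11, against 0.47 over all hens. TPM1 and MYL9 then had r = 0.69 and 0.82, whereas TPM3 and CNN3 had -0.19 and -0.29. MYL6, MYL12B, MYH9 and MYL12A had r = 0.36, -0.0083, -0.48 and 0.03, and ACTN1 had -0.12.

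Over the 10 hens, the lists of upstream controls of contraction had median correlations with the mean of the 8 between -0.33 and -0.0078. The median over all tested genes outside the 8 was 0.0092, so the lists nearest 0 did not stand apart from it. Without Translucent-1 and Opaque-5, some genes of these lists moved up, and others stayed negative or fell. The 8 tested genes of myosin phosphorylation control (among them RHOA, PPP1CB and PPP1R12A) had a median r of -0.33 and a median log2 fold change of 0.02. For calcium and potassium handling, 8 of 10 genes were tested, among them the calcium pump gene ATP2A2 with 116.1 ± 23.7 FPKM in translucent and 135.9 ± 33.4 FPKM in opaque hens, and the median r was -0.0078 (median log2 fold change -0.07). PLN, which codes for the inhibitor of that pump, was listed at 0 in every hen. The 8 tested transcription factor genes had a median r of -0.12 and a median log2 fold change of -0.08. SRF, the factor that binds the CArG boxes of many smooth muscle genes, had 10.2 ± 3.84 FPKM in translucent and 11.2 ± 3.80 FPKM in opaque hens (r = -0.59), and its muscle coactivator MYOCD, named after its values were seen, had 0.908 ± 0.191 and 0.80 ± 0.311 FPKM in the same order (r = 0.39). Of the 15 genes for contraction receptors and coupling, 7 were tested, with a median r of -0.04 and a median log2 fold change of -0.07. The gap junction gene GJA1, the prostaglandin receptor genes PTGER3 and PTGFR and the endothelin receptor gene EDNRA led it, between 9.92 and 21.7 FPKM on average, and the genes CHRM2 and ADRA1A were listed at 0 in every hen. Without Translucent-1 and Opaque-5, r was 0.73 for GJA1, against 0.21 over all hens, 0.71 for EDNRA, against 0.40, and 0.56 for MYOCD, against 0.39. It stayed negative for PTGER3 (-0.41, against -0.58), PTGFR (-0.40, against -0.65) and SRF (-0.46, against -0.59). For PPP1R12A, r fell from 0.49 to -0.32. The median r without these hens was -0.17 for phosphorylation control, 0.11 for calcium and potassium handling, -0.10 for the transcription factors and 0.13 for receptors and coupling.

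**Figure D5:**
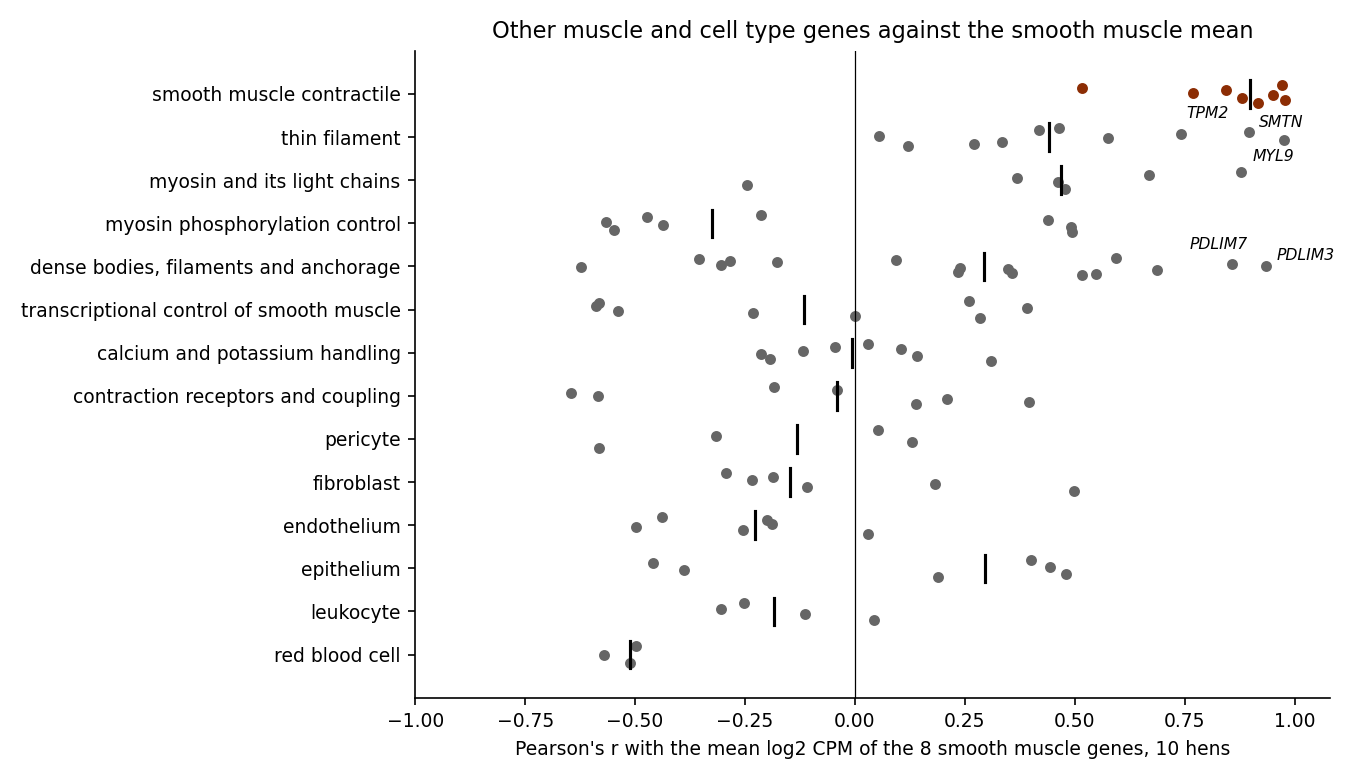
Pearson's r over 10 hens between each tested gene and the mean log2 CPM of the 8 smooth muscle genes, with 1 point per gene, 1 row per gene list and a black line at the list's median. The 8 genes, whose own levels enter the mean, had a median of 0.90, and among other lists single genes such as SMTN (0.98) and PDLIM3 (0.94) came as high, while no tested marker of endothelium, fibroblasts, pericytes, epithelium or blood cells exceeded 0.50 over all 10 hens.

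Genes of other cell types show what else differed between the hens. Smooth muscle identity was checked against striated muscle, for which ACTC1, MYH7, MYL1, TNNC2, TNNI2 and MYBPC1 averaged under 0.1 FPKM in each group. MB was listed at 0 in every hen, and only ACTA1 and TNNT3 of 9 genes in the table passed the filter. These were not absent, with 4.32 FPKM for ACTA1 and 2.77 FPKM for TNNT3 over all hens, above LMOD1 at 1.99 FPKM. Their r with the mean of the 8 was 0.68 and 0.38. Markers of endothelium (6 of 6 tested) summed to 59.7 FPKM in Translucent-1, against 88.3 to 124.7 FPKM in the other translucent hens, and to 51.6 FPKM in Opaque-5, against 88.6 to 143.5 FPKM in the other opaque hens. Fibroblast markers (6 of 6 tested) behaved alike, with 108.1 FPKM in Translucent-1, against 141.5 to 248.7 FPKM in the other translucent hens, and 98.7 FPKM in Opaque-5, against 128.4 to 269.1 FPKM in the other opaque hens. Pericyte markers (4 of 6 in the table) summed to 42.9 FPKM in Translucent-1, against 44.8 to 90.9 FPKM in the other translucent hens, and to 44.9 FPKM in Opaque-5, against 53.4 to 86.4 FPKM in the other opaque hens. The sum of the epithelial markers (6 of 8 in the table), most of it EPCAM, was the highest of its group in both hens. It reached 1549 FPKM in Translucent-1 and 1746 FPKM in Opaque-5. Of the single markers, only EPCAM and KRT18 were the highest of their group in both, and CDH1 was the highest in neither. ELF3 was the lowest of its group in both, with 67.3 and 82.2 FPKM. ESRP1 was the lowest translucent value in Translucent-1, with 4.59 FPKM. The sum of ACTB, ACTA1 and ACTC1, nearly all of it ACTB, was also the highest of its group in these hens, with 1489 and 1901 FPKM. ACTA1 alone was not the highest of its group in Opaque-5, at 3.49 FPKM, against 10.1 FPKM in Opaque-1. The highest muscle sum of the 10 hens thus stood in Translucent-1. Its sums of vessel and stroma markers, like those of Opaque-5, were the lowest of the group. RGS5 made up most of the pericyte sum and DCN most of the fibroblast sum. Single markers differed, since COL1A1, CDH5, RGS5 and KCNJ8 in Translucent-1, at 6.44, 7.91, 39.0 and 2.60 FPKM, were not the lowest translucent values. The part of these cell types in the muscle values was not tested. Without these 2 hens, the fibroblast markers had a median r of 0.33 with the mean of the 8, against -0.15 over all hens, with COL1A1 at 0.75 and COL3A1 at 0.72, and the endothelial markers had a median r of 0.03, against -0.23. Of the 32 tested cell type genes, 0 had an unadjusted p-value under 0.05 between the groups in edgeR, against 2.19% of all tested genes, and their median log2 fold change was -0.02.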

How the data were processed

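Total RNA of white isthmus from 10 hens was sequenced by the authors after mRNA capture, with 1 library per hen. According to their methods, reads were filtered with fastp, rRNA reads were removed with Bowtie2, and the rest were aligned with HISAT2, assembled with StringTie and quantified with RSEM. The genome build is not given in the sources used here, so no coordinates are printed. The deposited table holds expected counts per gene and hen, which the authors did not normalize. It also holds FPKM, which the authors scaled by transcript length and depth. No sequences of these genes were used here.

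Expected counts, 6.73% of them fractional (over 0.005 from a whole number), were rounded. A floor of 3 counts equals 0.158 to 0.259 CPM, and covers counting error only. Genes were tested with edgeR 4.0.16 (TMM, filterByExpr, quasi-likelihood test, Benjamini-Hochberg adjustment over all tested genes) in R 4.3.3, and log2 CPM used a prior count of 2. The standard errors given with edgeR fold changes were derived, as the absolute log2 fold change divided by the square root of the test's F statistic. DESeq2 1.42.0 and limma 3.58.1 were alternatives. Permutation tests used the 252 allocations of hens to groups, or 100000 resamples for correlations, with numpy 2.4.6 in Python 3.11.15. Implied length is the median over hens of the count divided by FPKM and by the counted total, and thus assumes that the total is the authors' denominator.

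The calling steps were run on simulated counts of independent hens, with the same dispersion (spread beyond counting error) for every gene. Those counts held no hens that lay apart, so the run does not show how calling behaves in these data. The 8 genes and all gene lists were chosen with earlier results of these data known. The genes named are the 8, the 4 most abundant of each muscle list, the 10 genes most like and the 5 least like the mean of the 8, and a few added after their values were seen, and 1 gene of these is not reported here. Hens carry numbers 1 to 5 in both groups but are different animals, so the numbers were a block only in an alternative. The labels give no batch. The other alternatives were median-of-ratios factors, library size alone, no filter, at least 10 reads in every hen, each hen left out, Translucent-1 and Opaque-5 left out, hens 1 to 3 of each group, and log2 FPKM with pseudocounts of 1 and 0.1. Leaving out TAGLN2, and correlations of listed genes without Translucent-1 and Opaque-5, were added after seeing the data.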

Additional observations from a re-analysis of the deposited data

Results flagged for a closer look

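In groups of 5 hens, a value was singled out by its gap to the nearest hen, as a share of the group's range. The limit was 0.71, which chance exceeds in about 1 of 20 separate groups of normally distributed values. Of 18 groups examined, 6 held a hen beyond this limit. The groups share the same hens and genes that rose and fell together, so the rate of 1 in 20 cannot judge this count. The share of such groups over all tested genes was not computed. Translucent-1 was the far highest translucent hen in CNN1 (gap share 0.884), DES (0.813), TAGLN (0.766) and ACTG2 (0.750). Opaque-5 was the far highest opaque hen in CNN1 (0.853) and the far lowest in ACTA2 (0.802). All 6 thus concern the hens that lay apart on the first principal component.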

How the results depend on the processing

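No setting made any of the 8 muscle genes pass the adjusted threshold, and DESeq2 called 4 genes of the whole table, against 0 in edgeR. The fold changes of all 8 muscle genes were smaller than their standard errors, and signs turned in 29 of 80 values with 1 hen left out and in 15 of 80 values under the other settings. The cause was not tested.

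With library size alone, CNN1 stood at -0.046 and LMOD1 at -0.053. Without Translucent-1 and Opaque-5, ACTA2 was at -0.23, CNN1 at -0.86 and LMOD1 at -0.38. In hens 1 to 3 of each group, ACTG2 was at 0.22, DES at 0.25, TAGLN at 0.20 and LMOD1 at -0.037. With the replicate number as a block, CNN1 was at -0.62 and LMOD1 at -0.021. On log2(FPKM + 1), CNN1 was at -0.48 and LMOD1 at -0.028, and with a pseudocount of 0.1 they were at -0.60 and -0.031. With 1 hen left out in turn, log2 fold changes ranged from -0.16 to 0.21 for ACTA2, -0.86 to 0.15 for ACTG2, -0.32 to 0.15 for MYH11, -1.27 to 0.45 for CNN1, -0.53 to 0.10 for DES, -0.23 to 0.0011 for MYLK, -0.66 to 0.093 for TAGLN and -0.25 to 0.11 for LMOD1.

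The log2 ratio of the summed levels was -0.43 without Translucent-1 and Opaque-5, -0.09 from FPKM and between -0.35 and 0.12 with 1 hen left out. Same-numbered hens had deviations with a mean r of -0.13 over 5 pairs, so the numbers do not pair them, and the block called 0 genes. LMOD1 had as few as 37 reads in 1 hen and CNN1 as few as 60, so counting error was largest for these genes.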

Other observations

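Outside the muscle genes, the 5 tested genes that ran most against the mean of the 8 over the 10 hens were GLT8D1 (r = -0.93), PPP3CC (-0.92), AP1S2 (-0.91), NUDT6 (-0.91) and ENSGALG00000010335 (-0.90). GLT8D1, a glycosyltransferase domain gene, had 221.1 to 329.8 CPM in translucent hens, against 235.4 to 279.5 CPM in opaque hens. PPP3CC codes for a catalytic subunit of the calcium-dependent phosphatase calcineurin and had 7.69 to 11.4 CPM in translucent hens, against 9.70 to 11.1 CPM in opaque hens. The share of tested genes with r below -0.8 was 0.381%.

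The hemoglobin genes HBA1, HBBA and HBAD, carried by red blood cells, had r of -0.51, -0.50 and -0.57 with the mean of the 8. Without Translucent-1 and Opaque-5, r was -0.36, -0.33 and -0.29 for these genes in the same order. Summed, the hemoglobin genes reached 83.1 FPKM in Translucent-1, against 130.2 to 312.0 FPKM in the other translucent hens. Their sum was 87.8 FPKM in Opaque-5, against 127.9 to 192.7 FPKM in the other opaque hens. The leukocyte genes PTPRC, CD3E, CSF1R and CD74 had a median r of -0.18 and a median log2 fold change of 0.32, with 0 of 4 at an unadjusted p-value under 0.05 in edgeR, against 2.19% of all tested genes.

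Markers of interstitial cells of Cajal, the pacemaker cells of gut muscle, were scarce. KIT and ANO1 summed to between 1.34 and 2.43 FPKM in translucent hens, against 0.83 to 2.33 FPKM in opaque hens. All 6 glia and nerve genes fell below the low-count filter.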
